A study of Homo sapiens with 6 samples.

Results

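The 10 genes described here encode proteins that restrain the RAS to ERK signalling cascade: the dual-specificity phosphatases DUSP4, DUSP5, DUSP6 and DUSP7, the Sprouty proteins SPRY1, SPRY2 and SPRY4, and the SPRED proteins SPRED1, SPRED2 and SPRED3. They were chosen by gene name, and each was read from the probe set whose only platform gene symbol was that name. All 10 were measured, with 1 probe set each, among 18417 genes tested. They were set side by side in WM164, an established human melanoma line with a mutant BRAF kinase. The 3 parent samples (Parent_1 to Parent_3) are labelled control or untreated, and the series title says that they were given DMSO, the solvent. The 3 treated samples (IDTC colony-1 to IDTC colony-3) had been kept for 60 days in 500 nM PLX4032, also called vemurafenib, an inhibitor of mutant BRAF, and are labelled resistant. All 6 samples therefore come from a single line, and the labels do not say whether a colony is a single clone. Nor do they say whether the inhibitor was still present when RNA was taken, or how long before that the medium was last changed. RNA was read on Affymetrix whole-transcript arrays, 1 array a sample.

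In the ERK cascade, RAS activates RAF kinases, RAF activates MEK, and MEK activates ERK by phosphorylating it on a threonine and a tyrosine. Active ERK raises the transcription of its own inhibitors, which makes a negative feedback loop. Dual-specificity phosphatases take both phosphates off ERK. Sprouty proteins act further up, between growth factor receptors and RAF, and SPRED proteins bring neurofibromin, which switches RAS off, to the membrane. In melanoma with mutant BRAF these genes are widely read as a measure of ERK output.

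In the colonies 4 of the 10 feedback genes were lower than in the parent cells, 1 was higher and 5 did not pass the test. SPRY1 fell about 2.02-fold, SPRY4 1.74-fold, DUSP6 1.73-fold and DUSP5 1.43-fold, while SPRY2 rose 1.37-fold. DUSP4, DUSP7 and all 3 SPRED genes differed by at most 0.07 on the log2 scale. Each gene was tested with limma on the deposited log2 values, p-values were adjusted by Benjamini-Hochberg across the whole table, and an adjusted p under 0.05 counted as a call. This called 43.8% of all genes tested in either direction, 22.9% of them as lower and 20.9% as higher, so 5 calls among 10 genes lie near the share of all genes. Among genes above the median expression, which 9 of the 10 were, the share called was 68.0%, against 5 of these 9. The median difference of the 10 genes was -0.06 and that of all genes was 0.00, while the median size of the difference without its sign was 0.26 against 0.15. All genes here include dim ones, and this size was not taken for genes above the median expression alone.

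The parent and colony samples did not overlap in 6 of the 10 genes, against 50.8% of all genes. This share and the 2-fold shares that follow also count dim genes. At least a 2-fold fall past the test was reached by 1 of the 10, SPRY1, against 2.76% of all genes, and a 2-fold rise by 0 of the 10, against 2.65%. SPRY1 lay at that limit: its log2 difference was -0.99 without parent replicate 2, -0.97 after quantile normalization and -0.77 with the median of its neighbouring genes subtracted, each short of 2-fold. A lower array value can mean less of the RNA in every cell or fewer cells that carry it, and the 2 cannot be told apart in bulk samples. The design text describes triplicates with RNA isolated separately but does not say that these were separate cultures, so the spread behind each p-value is that of these 3 samples a group and may be technical only.

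**Figure D1:**
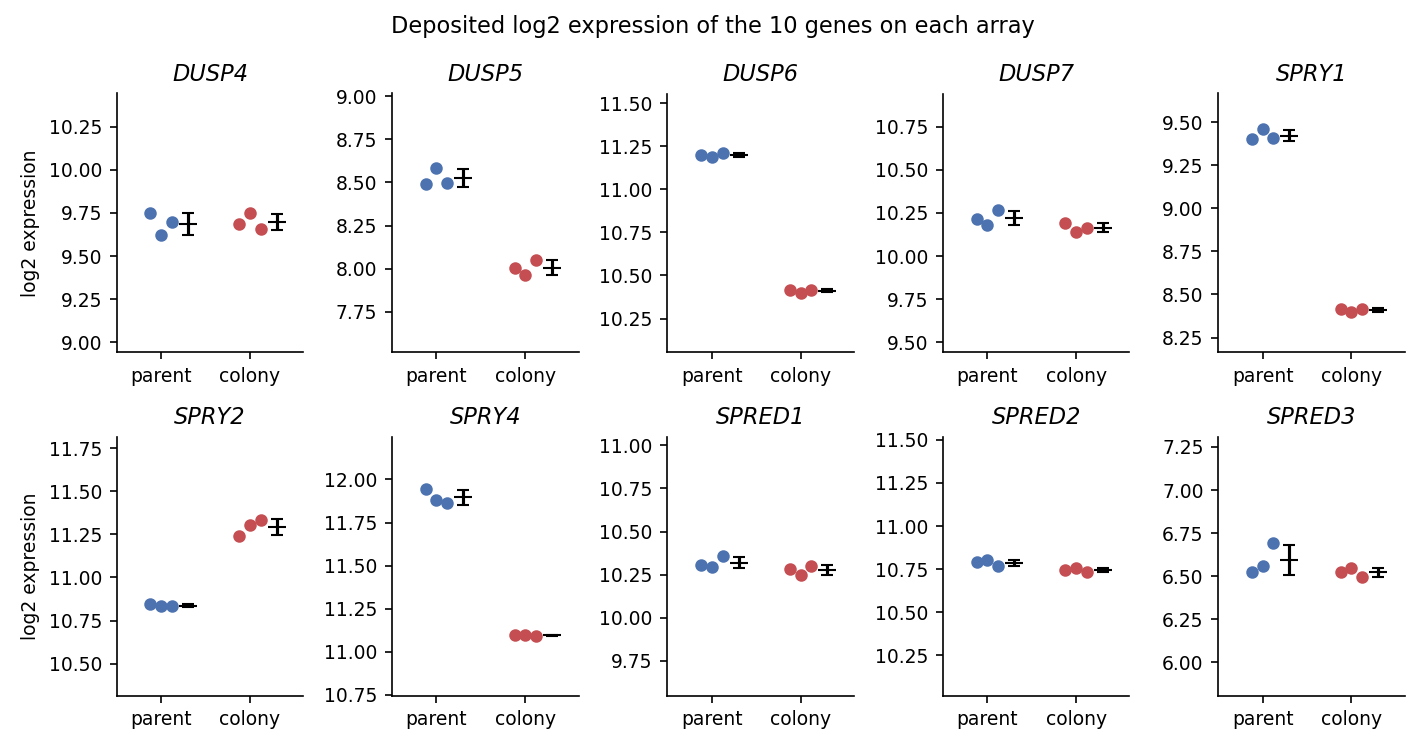
Deposited log2 expression (vertical axis) of each of the 10 genes on the 3 parent arrays (blue) and the 3 colony arrays (red), with the mean and SD of each group in black. Every panel spans the same range on the log2 scale but is centred on its own gene. The red points lie below the blue ones for DUSP5, DUSP6, SPRY1, SPRY4 and, by a small margin, SPRED2, and above them for SPRY2.

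Over all genes, the correlation of 2 arrays ranged from 0.997 to 0.998 within a group and from 0.967 to 0.969 between groups. The melanocytic label held in the markers, with 8 of 9 measured lineage genes above the median expression, against 2 of 8 fibroblast, 1 of 7 keratinocyte, 1 of 7 leukocyte and 0 of 6 endothelial markers. Of the 7 leukocyte markers 3 were lower in the colonies and 0 higher, beside 22.9% and 20.9% of all genes. The mean log2 value of these markers lay between 6.05 and 6.11 on the parent arrays and between 5.50 and 5.55 on the colony arrays. The fall lay in LYZ, the lysozyme gene (means 7.76 and 5.41), FCER1G, an immune receptor chain gene (7.01 and 5.57), and CSF1R, a macrophage receptor gene (5.78 and 5.55). Both CSF1R means and the colony means of LYZ and FCER1G lay under the lowest array median of 6.25. TYROBP, an adaptor gene of immune cells, was at 7.86 and 7.93 and did not pass the test, and PTPRC, the defining leukocyte surface gene, was at 3.67 and 3.71, under the lowest array median of 6.25. Among 7 measured immediate early and heat shock genes, which also respond to cell handling, 6 were higher and 1 lower in the colonies. The shares of all genes were 20.9% and 22.9%. FOS, FOSB, JUN, JUNB, EGR1 and ATF3 were the higher ones. DNAJB1, the only heat shock gene measured in this list, was the lower one (log2 difference -0.27). The mean log2 value of the 7 genes lay between 8.28 and 8.36 on the parent arrays and between 9.30 and 9.44 on the colony arrays. The part of these shifts in the feedback genes was not tested.

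DUSP6 is a phosphatase of cytoplasmic ERK. Its log2 values (probe set 7965335) were 11.20, 11.19 and 11.21 in the parent samples and 10.42, 10.40 and 10.42 in the colonies. The groups were far apart and each varied little, with means of 11.20 ± 0.013 and 10.41 ± 0.0087 (SD, n = 3 arrays). The difference was -0.79 ± 0.04 (log2, SE; 95% interval -0.88 to -0.70; limma adjusted p = 4.15e-06). The 50 expressed genes nearest to DUSP6 in the gene order had a median difference of -0.36, with 31 of them lower and 9 higher in the colonies, and 5 of the 50 lay further down than DUSP6. With the neighbourhood median subtracted on each array the difference of DUSP6 was -0.47 (limma adjusted p = 0.000174), still past the test.

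DUSP5 is the ERK phosphatase of the nucleus, induced by ERK as DUSP6 is. It was measured at 8.49, 8.59 and 8.50 in the parent samples and at 8.005, 7.97 and 8.05 in the colonies (probe set 7930413). All 3 colonies lay below all 3 parent samples. Means of 8.53 ± 0.053 and 8.01 ± 0.043 (SD, n = 3 arrays) gave a difference of -0.52 ± 0.05 (SE; 95% interval -0.63 to -0.40; limma adjusted p = 8.81e-05). Its surroundings went the other way, with a median of 0.27 among the 50 nearest expressed genes, of which 31 were higher and 2 lower. None of those 50 genes, whose lowest difference was -0.34, lay below DUSP5. With the neighbourhood median subtracted its difference was -0.82 (limma adjusted p = 1.25e-05).

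DUSP4, a nuclear phosphatase of ERK and related kinases that ERK also induces, showed no such shift. Its log2 values were 9.75, 9.62 and 9.69 in the parent samples and 9.68, 9.75 and 9.66 in the colonies (probe set 8150076). The groups overlapped throughout. The difference was 0.01 ± 0.05 (SE; 95% interval -0.11 to 0.13; limma adjusted p = 0.902), which in linear terms spans 0.925 to 1.1 times the parent level. The sign turned when all arrays were shifted to a common median (-0.01).

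DUSP7, the close relative of DUSP6 in the cytoplasm, lay at 10.21, 10.18 and 10.27 in the parent samples and at 10.19, 10.14 and 10.16 in the colonies (probe set 8087833). The groups overlapped here too. Its difference of -0.06 ± 0.04 (SE; 95% interval -0.16 to 0.05; limma adjusted p = 0.378) did not pass the test, and it was 0.03 after quantile normalization.

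The phosphatases thus differed among themselves, and the log2 ratio of a pair on the same array shows by how much. DUSP6 over DUSP7 was 0.99, 1.004 and 0.95 in the parent samples and 0.22, 0.26 and 0.26 in the colonies, a shift of -0.73. DUSP4 over DUSP6 shifted by 0.80 and DUSP5 over DUSP7 by -0.46, both without overlap between the groups. DUSP5 over DUSP6, the 2 phosphatases that fell, shifted by 0.27 without overlap. DUSP4 over DUSP7 shifted by 0.07 and its groups overlapped. These ratios describe unequal change on the same arrays, and their shifts were not tested.

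SPRY1, an inhibitor of ERK signalling from growth factor receptors, had the largest difference of the 10 genes. Its log2 values were 9.40, 9.46 and 9.40 in the parent samples (9.42 ± 0.033, SD, n = 3 arrays) and 8.42, 8.40 and 8.42 in the colonies (8.41 ± 0.012; probe set 8097282). All 3 colonies lay below all 3 parent samples. The difference was -1.01 ± 0.04 (SE; 95% interval -1.11 to -0.91; limma adjusted p = 1.76e-06). Among its 50 nearest expressed genes the median was -0.30, and 4 of the 50 lay below it.

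SPRY4, which dampens ERK activation by growth factor receptors, followed. It lay at 11.94, 11.88 and 11.86 in the parent samples (11.90 ± 0.043, SD, n = 3 arrays) and at 11.10, 11.10 and 11.09 in the colonies (11.10 ± 0.0025; probe set 8114797). Again all colonies were below all parent samples. Its difference was -0.80 ± 0.04 (SE; 95% interval -0.90 to -0.70; limma adjusted p = 5.79e-06), beside a neighbour median of -0.27 in which 30 of 50 genes were lower and 6 higher. Of these neighbours 3 lay below SPRY4.

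SPRY2, the Sprouty protein best known for binding the ubiquitin ligase CBL, moved in the opposite direction. Its log2 values were 10.85, 10.83 and 10.83 in the parent samples (10.84 ± 0.0070, SD, n = 3 arrays) and 11.24, 11.30 and 11.33 in the colonies (11.29 ± 0.045; probe set 7972217). All 3 colonies were above all 3 parent samples, and SPRY2 was the only one of the 10 genes past the test as higher, in the main comparison and in each alternative run. The difference was 0.45 ± 0.04 (SE; 95% interval 0.35 to 0.56; limma adjusted p = 9.91e-05). The 50 nearest expressed genes had a median of 0.15, and 18 of them lay above SPRY2.

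The ratios of SPRY2 to the other Sprouty genes on the same array moved further than either gene alone, which follows from their opposite directions. SPRY1 over SPRY2 was -1.45, -1.37 and -1.43 in the parent samples and -2.83, -2.91 and -2.91 in the colonies, a shift of -1.47 on the log2 scale. SPRY2 over SPRY4 went from -1.10, -1.05 and -1.03 to 0.14, 0.20 and 0.24, a shift of 1.25. SPRY1 over SPRY4, the 2 that fell, shifted by -0.21, also without overlap.

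**Figure D2:**
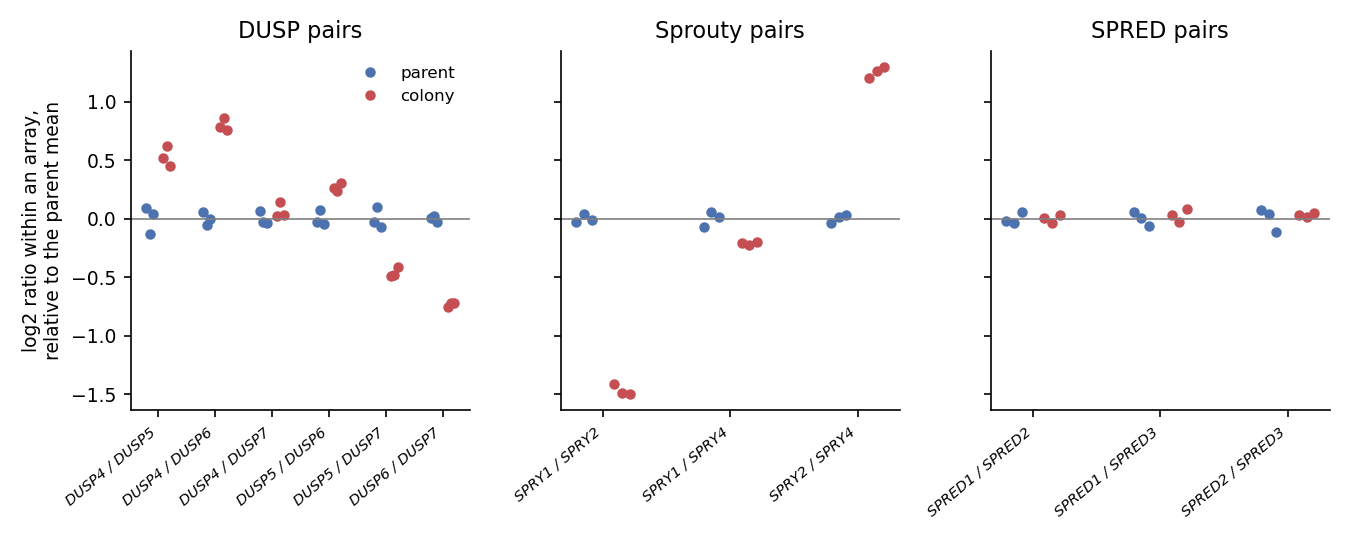
Log2 ratio of each pair of genes within the DUSP, Sprouty and SPRED families on every array (vertical axis), set to 0 at the mean of the parent arrays; blue points are parent arrays and red points colony arrays. The SPRY1 over SPRY2 ratio shifted by -1.47 and the SPRY2 over SPRY4 ratio by 1.25, while the groups overlap in all 3 SPRED ratios.

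The SPRED genes, which encode membrane-bound relatives of Sprouty, gave no call. SPRED1, the member whose loss causes Legius syndrome in people, had log2 values of 10.31, 10.30 and 10.36 in the parent samples and 10.28, 10.25 and 10.30 in the colonies (probe set 7982564). The groups overlapped, and the difference was -0.04 ± 0.04 (SE; 95% interval -0.14 to 0.06; limma adjusted p = 0.491). SPRED2 lay at 10.79, 10.80 and 10.77 against 10.75, 10.76 and 10.73 (probe set 8052689). Its groups did not overlap, yet the difference of -0.04 ± 0.04 (SE; 95% interval -0.14 to 0.05; limma adjusted p = 0.47) did not pass the test. After quantile normalization both turned sign, to 0.04 for SPRED1 and 0.06 for SPRED2, without passing.

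SPRED3, the remaining member of the family, was the single feedback gene below the median expression, with 6.52, 6.56 and 6.69 in the parent samples and 6.52, 6.55 and 6.49 in the colonies (probe set 8028389). The groups overlapped (difference -0.07 ± 0.06, SE; 95% interval -0.20 to 0.06; limma adjusted p = 0.377). Its values lay just above the array medians of 6.25 to 6.34, and whether they were above background was not tested. Over the 5 genes that did not pass, the 95% intervals ran from -0.20 to 0.13, so a change as large as that of SPRY2, the smallest of the 5 called, lay outside each of them. These intervals do not show that the 5 genes were equal in both groups.

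**Figure D3:**
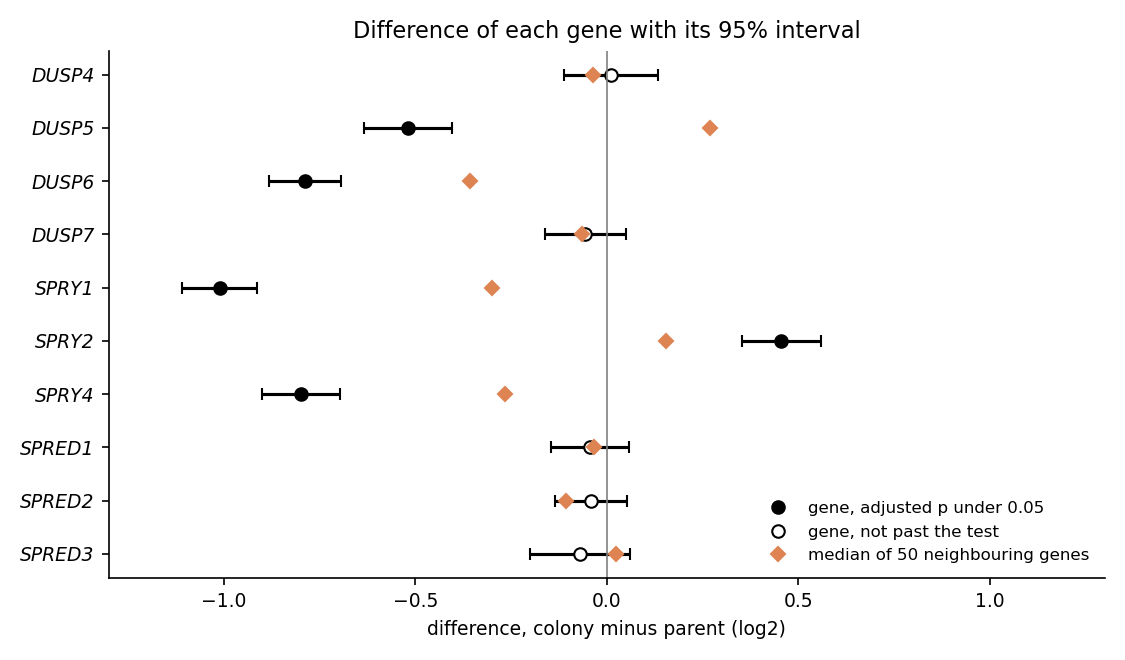
Difference of each of the 10 genes, colony minus parent on the log2 scale (horizontal axis), with its 95% interval from limma (bars); filled circles passed the test and open circles did not. Diamonds give the median difference of the 50 nearest expressed genes in the gene order. Among genes past the test this median has the same sign as the gene for DUSP6, SPRY1, SPRY2 and SPRY4 and the opposite sign for DUSP5. Among those not past the test its sign is opposite for DUSP4 and SPRED3.

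The spread within groups was small, with SDs between 0.0025 and 0.088, and 4 of the 10 genes had the same deposited value on at least 2 arrays, as had 30.4% of all genes. SPRY1 and SPRY4 repeated a value within the colonies and SPRY2 within the parent samples, so these very small SDs are partly a property of the deposited values.

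The sequence before the transcription start was available for 8 of the 10 genes, 13 starts in all, from RefSeq (GRCh38.p14). It was lacking for DUSP4 and for DUSP5, and DUSP5 is among the genes that fell. ETS family factors, which ERK phosphorylates, bind DNA around a GGAA core. The 100 bases before the outermost start of DUSP6 and SPRY1, which fell, and of SPRY2, which rose, are shown because these genes carry the opposite movements, with each GGAA core on either strand in capitals (TTCC where it lies on the other strand). They lie at chr12:89352502-89352601 on the minus strand, chr4:123396695-123396794 on the plus strand and chr13:80341127-80341226 on the minus strand.
DUSP6: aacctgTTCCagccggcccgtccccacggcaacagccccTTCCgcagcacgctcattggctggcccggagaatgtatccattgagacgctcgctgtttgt
SPRY1: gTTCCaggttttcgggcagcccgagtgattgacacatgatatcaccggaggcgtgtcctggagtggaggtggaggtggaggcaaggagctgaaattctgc
SPRY2: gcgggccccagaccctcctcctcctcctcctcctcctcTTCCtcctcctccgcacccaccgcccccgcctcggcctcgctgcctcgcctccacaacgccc
DUSP6 held 2 cores and SPRY1 and SPRY2 held 1 each. A core stood in the 100 bases before 12 of the 13 starts and before 66.8% of 35116 starts of all genes. Those 12 starts belonged to 7 of the 8 genes. The GC content of the 3 stretches was 62% for DUSP6, 57% for SPRY1 and 75% for SPRY2.

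Longer motifs were searched on both strands from 250 bases before to 50 after each start. The ETS site CCGGAAG was found at 1 of the 13 starts, an inner start of SPRY1, and at 10.3% of all starts. The AP-1 site TGANTCA, bound by FOS and JUN proteins, was found at 2 of the 13 starts and at 7.71% of all starts. These were 1 inner start of SPRED2 and 1 inner start of SPRED3. The SPRED2 start held 2 matches, which are not shown. The cyclic AMP response element TGACGTCA was found at 0 of the 13 and at 1.85% of all starts. The matches in SPRY1 (chr4:123398309-123398335, plus strand) and SPRED3 (chr19:38389721-38389747, plus strand) are shown with 10 bases on each side, the motif in capitals.
SPRY1: ccctccgcagCCGGAAGggggccgcgg
SPRED3: cgttgctgggTGACTCAgtgagctttg
The first lies 67 bases and the second 60 bases before its start. A match describes these letters only and does not show a bound site.

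Other MAP kinase phosphatases changed in both directions. Of 6 measured, 3 were higher, 1 lower and 2 did not pass the test. Of all genes 43.8% were called, 20.9% as higher and 22.9% as lower, and of those above the median expression 68.0%. The 4 calls among these 6 genes lie between the shares of 43.8% and 68.0%. DUSP10, which prefers the stress kinases JNK and p38, was at 10.09, 9.99 and 10.06 in the parent samples and at 8.37, 8.41 and 8.45 in the colonies (log2 difference -1.64 ± 0.05 SE, limma adjusted p = 3.55e-07), a larger fall than that of any of the 4 DUSP genes above. DUSP16, which also acts on JNK, went from 7.59, 7.56 and 7.66 to 8.87, 8.79 and 8.81 (1.22 ± 0.05 SE, limma adjusted p = 1.37e-06). DUSP1, an immediate early phosphatase induced by stress and growth factors, rose from 8.84, 8.80 and 8.86 to 9.49, 9.44 and 9.24 (0.55 ± 0.07 SE, limma adjusted p = 0.000454). DUSP8 rose by 0.27 ± 0.07 (SE, limma adjusted p = 0.0205), but 4 of the 6 comparisons with an array left out did not pass, the adjusted p being 0.0673 without parent replicate 1, 0.081 without parent replicate 3, 0.0772 without IDTC_colony replicate 1 and 0.0653 without IDTC_colony replicate 3.

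Other genes that restrain RAS and ERK were likewise divided, with 4 of 12 measured higher, 3 lower and 5 not past the test. Their 7 calls also lie between the share called of all genes, 43.8%, and that of genes above the median expression, 68.0%. ERRFI1, a feedback inhibitor of the epidermal growth factor receptor family, fell from 10.54, 10.47 and 10.62 to 8.89, 8.83 and 8.93 (log2 difference -1.66 ± 0.05 SE, limma adjusted p = 5.80e-07). RASA2, which speeds the switching off of RAS, changed by -0.80 ± 0.08. NF1, which encodes the neurofibromin that SPRED proteins recruit, went from 9.41, 9.21 and 9.31 to 9.78, 9.78 and 9.75, a rise of 0.46 ± 0.06 (SE, limma adjusted p = 0.000415). That is its brightest of 3 probe sets, and their mean rose less, by 0.34 ± 0.08 (SE, limma adjusted p = 0.013). SPRY3, the remaining Sprouty gene, rose by 0.39 ± 0.08 (SE, limma adjusted p = 0.00388) from a parent mean of 5.95, which is under every array median, and whether that was above background was not tested.

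Of 18 measured genes of a list of other ERK output genes, 7 were higher, 7 lower and 4 did not pass the test. These 14 calls stand beside 43.8% of all genes and 68.0% of those above the median expression, which 17 of the 18 were. LIF, a cytokine gene, went from 9.87, 9.88 and 9.90 to 6.41, 6.35 and 6.42 (log2 difference -3.49 ± 0.04 SE), and PLAUR, the urokinase receptor gene, changed by -1.76 ± 0.04. In the other direction FOS, an AP-1 transcription factor gene, rose by 2.09 ± 0.08 and the ephrin receptor gene EPHA2 by 1.41 ± 0.08. The 4 limma adjusted p-values lay between 2.68e-08 for LIF and 5.45e-06 for EPHA2. The LIF colony mean of 6.39 and the EPHA2 parent mean of 6.53 lay just above the array medians of 6.25 to 6.34. Whether these means were above background was not tested. FOS and EGR1, both higher, were also among the immediate early and heat shock genes above, so these lists share members. The cyclin gene CCND1 changed by -0.18 ± 0.04 (SE, limma adjusted p = 0.011). After quantile normalization it changed by -0.08 (limma adjusted p = 0.21), which did not pass. The list medians were 0.05 for the output genes, 0.03 for the restraining genes and 0.11 for the other phosphatases, against -0.06 for the 10 feedback genes and 0.00 for all genes.

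**Figure D4:**
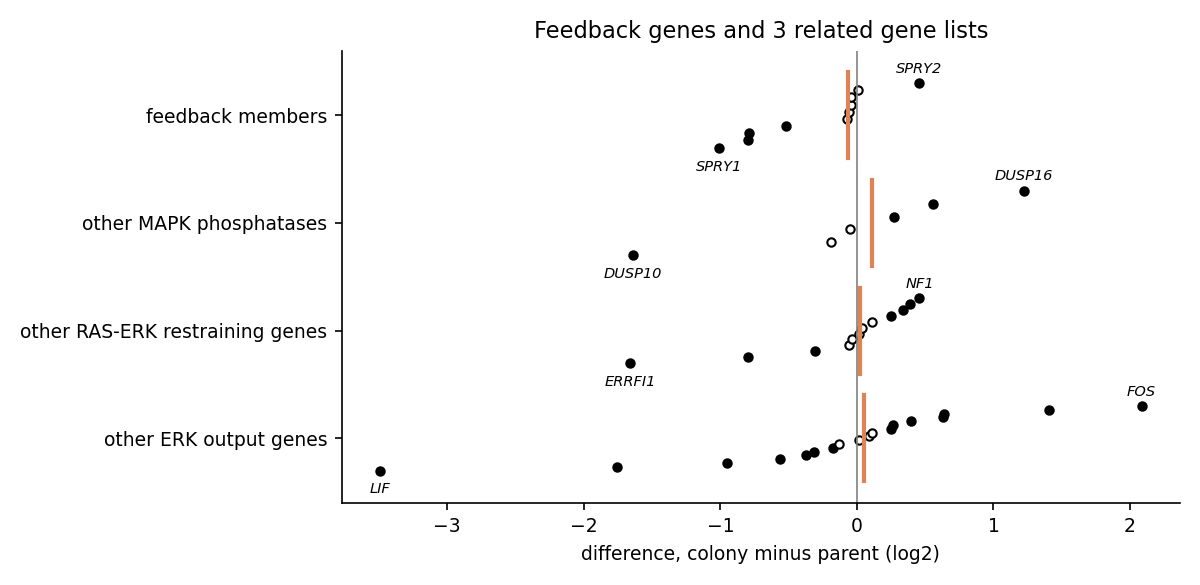
Difference, colony minus parent on the log2 scale (horizontal axis), of the 10 feedback genes and of every measured gene in 3 related lists; filled circles passed limma's test, open circles did not, and the orange bar is the list median. The feedback genes run from SPRY1 at -1.01 to SPRY2 at 0.45, and the ERK output genes from LIF at -3.49 to FOS at 2.09.

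The genes whose profile over the 6 arrays was most like that of SPRY1 were SLC4A2, DHX15 and ANP32A, at Euclidean distances of 0.057, 0.064 and 0.07 between log2 profiles centred on their own means. Their differences were -0.99, -0.99 and -0.99. For SPRY2 they were TMEM160 (distance 0.019), FRRS1 (0.044) and AFDN (0.045), with differences of 0.45, 0.44 and 0.46. With 2 groups of 3 arrays such likeness mainly picks genes with a difference of the same size.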

How the data were processed

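The deposited table holds a value for each of 33297 probe sets on 6 arrays. The authors' values are on a log2 scale, judged by their range of 1.82 to 13.9. Affymetrix Expression Console is named per the submitters' processing notes. Its version, the background correction, the summarisation, the normalization and any scan date were not given in the sources used here. Arrays have no read depth, and their number limits the precision. The platform annotation gave 1 gene symbol to 19460 probe sets, and the highest-mean probe set was kept for each of 18417 genes, with no filter on dim genes.

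Samples were grouped by title. The groups were compared by limma 3.58.1 (lmFit, eBayes, group as the only term, 2-sided) in R 4.3.3, adjusted over all genes. Differences are colony minus parent. Neighbours are the 25 genes on each side with a mean above the median of all genes, in the RefSeq gene order (GRCh38.p14). Genes named from the other lists are the up to 4 largest called differences of each list, with DUSP1, SPRY3 and CCND1 whatever their values. The members and lists were chosen with earlier results of these data known.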

Additional observations from a re-analysis of the deposited data

How the results depend on the processing

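The 5 called feedback genes kept their direction and their call in all 70 comparisons, under 14 alternatives each: 2 scalings, a filter on dim genes, probe sets averaged per gene, every probe set, another variance model, the replicate block, each array left out and the neighbourhood median subtracted. Their counts (4 lower, 1 higher) were the same in each. Not all of these alternatives could move a difference. Each of the 10 genes had 1 probe set, so averaging probe sets or keeping every one returned the same difference. The filter on dim genes, the other variance model and the replicate block also left it unchanged and could alter only the call. Genes that did not pass turned sign without passing: DUSP4 with a common array median (-0.013) and among the comparisons with an array left out (-0.024 to 0.040), DUSP7 (0.030), SPRED1 (0.044) and SPRED2 (0.063) after quantile normalization, and DUSP7 (0.0059) and SPRED2 (0.044) with the neighbourhood median subtracted. SPRED3 was outside the fit restricted to genes above the median expression. The count of other phosphatases called lower ran from 1 to 2 with an array left out, DUSP2 joining without parent replicate 1 (-0.32, limma adjusted p = 0.012). Samples with the same number did not deviate together (correlations -0.09, -0.06 and -0.01), no sample correlated best with its own number, and the samples share only a number. With the replicate block DUSP6 stayed at -0.79 (limma adjusted p = 0.000131) no call of the 10 genes changed, and the calls over all genes were 3633 higher and 3931 lower, against 3849 and 4212 without it. Only 3 arrays a group, and no measure of background, limit what can be said of dim genes.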

Other observations

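DUSP5P1, a pseudogene of DUSP5 with 2 probe sets of its own, did not follow its parent gene. Its brighter probe set (7910379) was at 6.24, 6.19 and 6.40 in the parent samples and at 6.41, 6.22 and 6.35 in the colonies (log2 difference 0.05 ± 0.07 SE, limma adjusted p = 0.667), close to the array medians, and the groups overlapped. It was looked at after the values of DUSP5 were seen.

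The lineage genes read beside the feedback genes were themselves divided, with 5 of 9 measured higher, 2 lower and 2 not past the test. GPR143, a receptor of the melanosome membrane, differed by 0.90 ± 0.05 (log2, SE) and PAX3, a neural crest transcription factor gene, by 0.95 ± 0.06, while MLANA, the melanoma antigen gene, differed by -1.45 ± 0.04. These genes were singled out after their values were seen.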
